A study of Mus musculus with 6 samples.

Results

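The genes described here are 10 genes known for their activity in leukocytes (Cd68, Coro1a, Cd14, Fcer1g, Ptprc, Laptm5, Tyrobp, Cd52, Cd53 and Lyz2), measured in cultured mouse dermal fibroblasts with and without a demethylating drug. They were listed by name, and every probe set that carried 1 of these symbols and no other was taken, which gave 18 of 45037 probe sets and 10 of 18193 genes. The list was selected on the signals of treated against control cells of these arrays, so those differences are given as a description, without tests. Of the 18 probe sets, 9, from 8 genes, had a mean signal over the 6 arrays of at least 67.7, the level set for testing. Passing this level does not show that a gene was expressed. Ptprc and Tyrobp stayed below it with all their probe sets.

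The study followed a GFP transgene on the X chromosome, under a chicken β-actin promoter with a CMV enhancer, in dermal fibroblasts grown from explants of newborn mice (age 0 to 2 days) and used at passage 4. The transgene came from males of a mixed 129/ICR background crossed to BL6 females, and the strain label reads B6. All cells had been sorted for absence of GFP, so that they carried the transgene on the inactive X chromosome. GFP-positive cells (2 arrays) had been given 4 μM 5-aza-2'-deoxycytidine, an inhibitor of DNA methyltransferases, for 48 hours, had recovered for 24 hours in normal medium and were then sorted for GFP that had come on. GFP-negative cells (2 arrays) went through the same treatment and recovery and were sorted for GFP that had stayed off. Control cells (2 arrays) were left untreated for the same times and were not sorted a second time after the culture, so drug and further sort cannot be told apart. The sex label of control replicate 2 reads mixed and that of the other 5 samples female, and the free text for the treated samples says untreated although the treatment fields give the drug.

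Leukocytes carry a shared set of proteins that other cells keep off. Ptprc (CD45) is a surface tyrosine phosphatase of nearly all nucleated blood cells, Fcer1g and Tyrobp are adaptors that couple receptors to the kinase Syk through ITAM motifs, and macrophages add CD14, CD68 and lysozyme for sensing and digesting microbes. In the dermis these genes mark resident macrophages, mast cells and other blood-derived cells, and their promoters are bound by blood cell factors such as PU.1, the product of Spi1.

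The values are MAS5 signals, a summary of the probes of a set on a linear scale of brightness, with each array scaled to a 2% trimmed mean of 500. The deposited scale was the same on 4 arrays, while GFP-positive replicate 2 needed a factor of 9.90 and GFP-negative replicate 2 a factor of 8.06. Dim signals differed by replicate number in every group: the 25th percentile of the scaled signals was 41.3 and 21.8 in GFP-positive cells, 42.6 and 22.6 in GFP-negative cells and 38.7 and 19.2 in control cells (replicates 1 and 2). The differences of the 10 genes from control are therefore also given within replicate 1 and within replicate 2. Log2 differences were taken after adding 30.6 to each signal, which shrinks the differences of dim genes. Precision is limited by having 2 arrays per group, and in such bulk RNA a few cells of another type with much of a transcript cannot be told apart from many cells with little of it. Fibroblast genes were bright on all arrays, with a median signal over 18 genes between 8481 and 15838 per array.

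CD68 is a lysosomal glycoprotein of macrophages. Cd68 had signals of 169 and 203 in GFP-positive cells, 185 and 148 in GFP-negative cells and 84.1 and 30.5 in control cells. All 4 treated arrays lay above both control arrays. The means were 186.0 ± 23.9 in GFP-positive, 167 ± 25.9 in GFP-negative and 57.3 ± 37.9 in control cells (SD, n = 2 each). The log2 difference from control was 1.37 in GFP-positive cells, made up of 0.80 for replicate 1 and 1.93 for replicate 2. In GFP-negative cells it was 1.23, with 0.91 and 1.55 within the replicates.

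Coro1a encodes coronin-1A, an actin-binding protein of the leukocyte cortex. Its brightest probe set gave 148 and 156 in GFP-positive cells, 149.7 and 111 in GFP-negative cells and 70.8 and 18.6 in control cells. As for Cd68, every treated array was above both control arrays. The log2 difference from control was 1.37 in GFP-positive cells (0.82 and 1.93 within replicates 1 and 2) and 1.18 in GFP-negative cells (0.83 and 1.53). The other probe sets of Coro1a were dim, with mean signals of 34.9 and 15.6. They gave log2 differences of 0.79 and -0.48 in GFP-positive against control cells and of 1.14 and -0.17 in GFP-negative against control cells, so the probe sets of this gene did not move together. All 4 treated arrays above both controls was the pattern of 2 of the 10 genes, Cd68 and Coro1a, and of 1727 of all 18193 genes (9.49%).

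CD14 is the co-receptor that hands lipopolysaccharide to the Toll-like receptor TLR4. Cd14 had signals of 272 and 216 in GFP-positive cells, 179 and 267 in GFP-negative cells and 179 and 22.8 in control cells. Both GFP-positive arrays were above both controls, while GFP-negative replicate 1 was level with control replicate 1, and control replicate 2 alone was low. The log2 difference in GFP-positive against control cells was 1.37, with 0.53 within replicate 1 and 2.20 within replicate 2. In GFP-negative against control cells it was 1.24, with -0.00 within replicate 1 and 2.48 within replicate 2, so it came from replicate 2. The 20 genes on the array that act with CD14 or with the adaptors had a median log2 difference of 0.24 in GFP-positive and 0.34 in GFP-negative cells against control. Of the 15 bright enough, limma called 0 in either, beside 0.122% and 0.0296% of all probe sets. With the replicate block it called 1, Syk, higher in GFP-positive cells, beside 6.21% of all probe sets, and 0 in GFP-negative cells, beside 3.57%. Of those of highest mean signal, Myd88, the adaptor below Toll-like receptors, gave log2 differences of -0.09 (SE 0.23) and -0.03 (SE 0.23) in GFP-positive and GFP-negative cells against control, Tirap 0.50 (SE 0.26) and 0.62 (SE 0.26), and Irak1 0.11 (SE 0.32) and 0.62 (SE 0.32).

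Fcer1g encodes the gamma chain of Fc receptors. Its signals were 74.5 and 126 in GFP-positive cells, 147 and 17.7 in GFP-negative cells and 52.8 and 7.1 in control cells. GFP-positive arrays lay above both controls, whereas the GFP-negative arrays lay on either side of control replicate 1. The log2 difference was 1.19 in GFP-positive against control cells (0.33 and 2.05 within replicates 1 and 2) and 0.72 in GFP-negative against control cells (1.09 and 0.36). Its mean signal of 70.8 was just inside the level for testing. Tyrobp, the DAP12 adaptor of natural killer and myeloid receptors, was outside it at 33.2. Tyrobp had signals of 28.2 and 35.6 in GFP-positive cells, 43.0 and 14.5 in GFP-negative cells and 73.9 and 4.2 in control cells. Control replicate 1 was the highest array of Tyrobp and control replicate 2 the lowest. The log2 differences from control were 0.05 in GFP-positive cells (-0.83 and 0.93 within replicates 1 and 2) and -0.07 in GFP-negative cells (-0.51 and 0.37).

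Laptm5 encodes a lysosomal membrane protein that lowers antigen receptor levels in lymphocytes. Its brightest probe set gave 247 and 141 in GFP-positive cells, 305 and 110.4 in GFP-negative cells and 123 and 91.7 in control cells. The GFP-positive arrays were above both controls, and GFP-negative replicate 2 was between the controls. The log2 difference from control was 0.67 in GFP-positive cells (0.85 and 0.48 within replicates 1 and 2) and 0.67 in GFP-negative cells (1.12 and 0.21). The next probe set of Laptm5 gave -0.29 in GFP-positive and 0.66 in GFP-negative cells. Its other 3 probe sets were dim, with mean signals of 33.2, 29.6 and 21.6. They gave log2 differences from control of -0.43, -0.23 and 0.31 in GFP-positive and of -0.88, -0.41 and 0.03 in GFP-negative cells. At the one of mean signal 33.2, all treated arrays lay below both controls. The probe sets of Laptm5 thus did not move together.

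Ptprc had signals of 59.6 and 55.4 in GFP-positive cells, 45.8 and 42.7 in GFP-negative cells and 60.1 and 4.9 in control cells at its brighter probe set. Control replicate 1 was at least as high as all treated arrays, and control replicate 2 was far below them. The log2 difference from control was 0.63 in GFP-positive cells, made up of -0.01 for replicate 1 and 1.28 for replicate 2. In GFP-negative cells it was 0.40, with -0.25 and 1.05.

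Cd52, Cd53 and Lyz2 had other orders. CD52 is a small glycosylphosphatidylinositol-anchored surface protein of lymphocytes and monocytes, and Cd52 had signals of 105 and 58.4 in GFP-positive cells, 25.3 and 43.5 in GFP-negative cells and 272 and 74.7 in control cells. Both GFP-negative arrays were below both controls, with a log2 difference of -1.47 (-2.43 within replicate 1 and -0.51 within replicate 2). In GFP-positive against control cells it was -0.70 (-1.15 and -0.24), and GFP-positive replicate 1 lay between the controls.

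CD53 is a leukocyte tetraspanin. Cd53 had signals of 455 and 503 in GFP-positive cells, 437 and 844 in GFP-negative cells and 236 and 812 in control cells. Treated and control arrays overlapped, and the brightest probe set was well lit in untreated cells too. The log2 difference in GFP-positive against control cells was 0.10, positive within replicate 1 (0.87) and negative within replicate 2 (-0.66), and in GFP-negative against control cells it was 0.43 (0.81 and 0.05). The other probe set of Cd53 had a mean signal of 46.0. Its log2 differences from control were -0.55 in GFP-positive and 0.49 in GFP-negative cells.

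Lyz2 encodes lysozyme M of macrophages and neutrophils. Its signals were 245 and 55.4 in GFP-positive cells, 194 and 9.67 in GFP-negative cells and 177 and 89.2 in control cells. The groups overlapped, and replicate 1 was the higher array in each. The log2 differences from control were -0.03 in GFP-positive cells (0.41 and -0.48 within replicates 1 and 2) and -0.73 in GFP-negative cells (0.12 and -1.57). Its neighbour Lyz1, lysozyme P of the intestine, was below the level for testing, with signals between 3.22 and 106 on the 6 arrays. The log2 differences of Lyz1 from control were -0.37 in GFP-positive and -0.86 in GFP-negative cells.

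**Figure D1:**
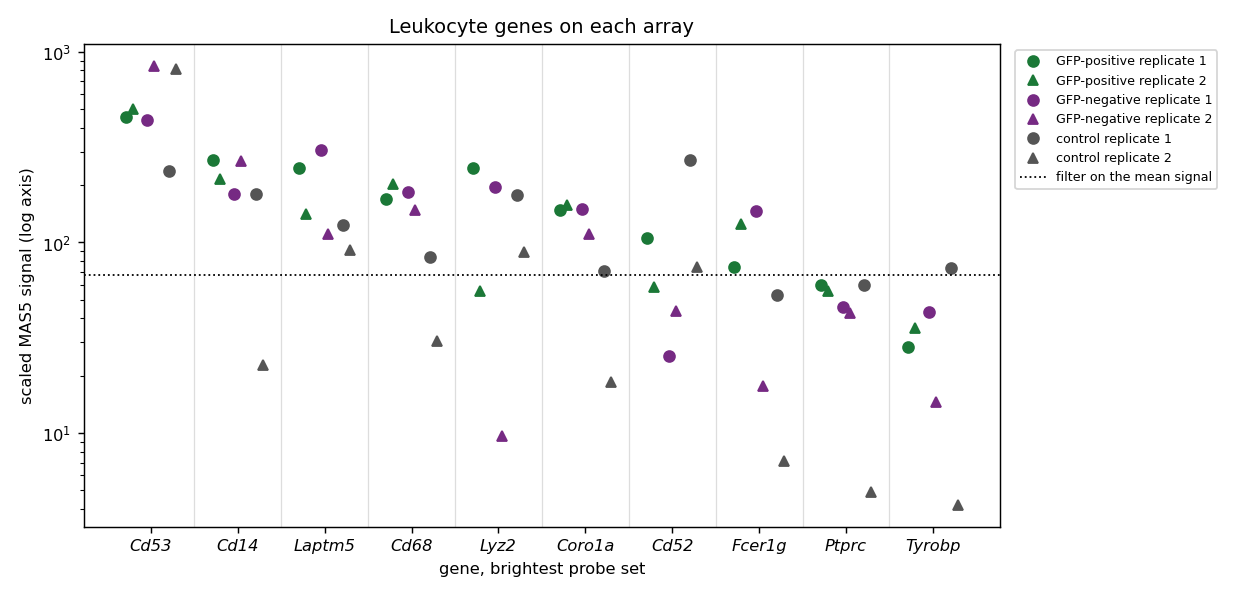
Scaled MAS5 signal (log axis) of the brightest probe set of each of the 10 leukocyte genes on each of the 6 arrays, GFP-positive left, GFP-negative in the middle and control right within a gene, circles for replicate 1 and triangles for replicate 2. For Cd68 and Coro1a all treated points lie above the control points. Control replicate 2 is the lowest point of Cd68, Coro1a, Cd14, Fcer1g, Laptm5, Ptprc and Tyrobp. The dotted line is the level for testing of the mean signal.

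Over the 10 genes, 5 (Cd68, Coro1a, Cd14, Fcer1g and Laptm5) had both GFP-positive arrays above both control arrays, a pattern held by 18.4% of all genes, and 0 had both below, beside 15% of all genes. For GFP-negative cells 2 genes (Cd68 and Coro1a) did so, beside 16% of all genes, and 1 (Cd52) had both arrays below, beside 14.1% of all genes. Since the list was drawn up with these contrasts known, nothing is read from the counts. Within both replicate numbers, GFP-positive cells exceeded control cells in 5 genes (34.2% of all genes) and GFP-negative cells did in 5 (32.8%). The median log2 difference over the 10 genes was 0.65 in GFP-positive against control cells (0.47 within replicate 1 and 1.10 within replicate 2), where that of all genes was 0.04. In GFP-negative against control cells it was 0.55 (0.46 and 0.37), where that of all genes was 0.03. Some other lists reached medians of like size. The 7 Schwann cell genes on the array had 0.60 in GFP-positive and 0.35 in GFP-negative cells against control. The 10 B cell genes, themselves leukocyte genes, had 0.40 and 0.49. Limma called 0 in either list, beside 0.122% and 0.0296% of all probe sets. Further lists lay nearer to all genes: 0.08 and 0.01 for genes of distant tissues, 0.04 and 0.07 for T and NK cell genes, and 0.09 and 0.05 for blood transcription factors. Both comparisons share the control arrays.

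**Figure D2:**
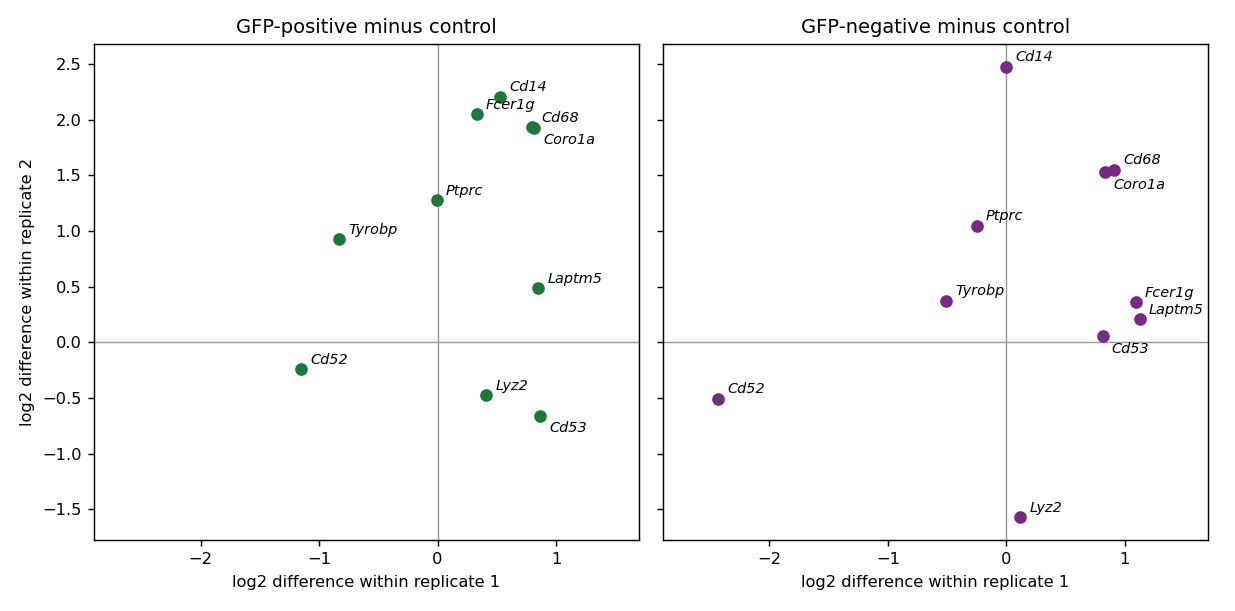
Log2 difference of each leukocyte gene from control within replicate 1 (x axis) and within replicate 2 (y axis), for GFP-positive cells (left) and GFP-negative cells (right), 1 point per gene at its brightest probe set. Cd68 and Coro1a lie in the upper right of both panels, Cd52 in the lower left, and Cd14 lies high on the y axis with 0.53 and -0.00 on the x axis.

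The 2 control arrays differed from each other more than the groups did for most of these genes. The signal of control replicate 1 was 2.76 times that of control replicate 2 for Cd68, 3.81 times for Coro1a, 7.86 times for Cd14, 7.44 times for Fcer1g, 12.3 times for Ptprc and 17.6 times for Tyrobp. For Cd52 it was 3.64 times, for Lyz2 1.98 times, for Laptm5 1.35 times and for Cd53 0.29 times. These ratios were taken without the offset. On control replicate 2, Fcer1g, Ptprc and Tyrobp had signals of 7.1, 4.9 and 4.2, at percentiles 11.5, 7.1 and 5.4 of that array. Their large ratios thus rest on signals near the floor. On the log2 scale the gap between the controls was larger than the GFP-positive minus control difference for 6 of the 10 genes and larger than the GFP-negative minus control difference for 7. Of the 10 genes, 5 were higher on replicate 1 than on replicate 2 in GFP-positive cells, 7 in GFP-negative cells and 9 in control cells, beside 58.9%, 61.3% and 59.7% of all genes. The part of the replicate number and of the mixed-sex label of control replicate 2 in these values was not tested.

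GFP-positive and GFP-negative cells went through the same drug and the same sort. The list was selected on treated against control cells, and the difference between the sorted fractions was tested. The selection used these same treated arrays, so the test is not independent of it. None of the 9 leukocyte probe sets bright enough was called by limma at an adjusted p under 0.05 (Benjamini-Hochberg over 27022 probe sets), where 0% of all probe sets were called and 169 had an unadjusted p under 0.05. The log2 differences of GFP-positive minus GFP-negative cells over these 9 probe sets ran between -0.96 (the second probe set of Laptm5) and 0.77 (Cd52), with standard errors between 0.50 and 0.92. The lowest limma p over them was 0.30 before adjustment and 1.00 after it, and with the replicate number as a block the lowest adjusted p was 0.868. Cd68 differed by 0.14 (SE 0.50), Coro1a by 0.19 (SE 0.56), Cd14 by 0.13 (SE 0.64) and Laptm5 by 0.00 (SE 0.53) at its brightest probe set. The second probe set of Laptm5 had signals of 50.3 and 39.6 in GFP-positive cells, against 220 and 54.8 in GFP-negative cells, without overlap, and differed by -0.96 (SE 0.85). At the brightest probe sets, in 2 of the 10 genes, Cd52 and Ptprc, both GFP-positive arrays lay above both GFP-negative arrays, beside 11.6% of all genes, and in 0 both lay below, beside 11%. Within both replicate numbers 3 genes were higher in GFP-positive cells, beside 26.8% of all genes. For Ptprc the signals were 59.6 and 55.4 against 45.8 and 42.7, with a log2 difference of 0.23. The median over the 10 genes was 0.16, where that of all genes was 0.00.

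Promoters of 7 of the 10 genes were found in the RefSeq table of build GRCm38.p6, 250 bases before to 50 after a gene's start. Of these 7, the 4 with the highest mean difference of treated from control cells are shown (Cd68, Coro1a, Fcer1g and Laptm5). The pair Lyz2 and Lyz1 is shown with them. DNA methyltransferases, which the drug inhibits, act on cytosines in CpG dinucleotides. Capitals mark each CpG.
Cd68 (chr11:69666121-69666420, minus strand): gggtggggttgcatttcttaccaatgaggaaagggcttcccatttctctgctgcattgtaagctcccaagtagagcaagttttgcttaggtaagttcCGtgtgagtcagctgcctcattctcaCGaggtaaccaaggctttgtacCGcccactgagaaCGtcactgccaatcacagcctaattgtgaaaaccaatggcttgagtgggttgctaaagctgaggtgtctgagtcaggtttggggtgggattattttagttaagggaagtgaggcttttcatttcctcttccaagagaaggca
Coro1a (chr7:126704767-126705066, minus strand): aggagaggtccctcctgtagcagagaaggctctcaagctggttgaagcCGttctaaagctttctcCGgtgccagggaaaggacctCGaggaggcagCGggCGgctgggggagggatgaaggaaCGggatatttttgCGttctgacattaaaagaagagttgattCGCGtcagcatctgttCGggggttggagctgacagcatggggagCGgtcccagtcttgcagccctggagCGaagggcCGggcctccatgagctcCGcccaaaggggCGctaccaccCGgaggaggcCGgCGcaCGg
Fcer1g (chr1:171234300-171234599, minus strand): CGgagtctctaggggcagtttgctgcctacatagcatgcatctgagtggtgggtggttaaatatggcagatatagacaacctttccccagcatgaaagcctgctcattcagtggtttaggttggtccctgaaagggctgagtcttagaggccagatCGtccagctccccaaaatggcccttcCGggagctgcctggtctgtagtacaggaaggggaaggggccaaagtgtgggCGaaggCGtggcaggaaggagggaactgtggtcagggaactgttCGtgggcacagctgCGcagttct
Laptm5 (chr4:130913066-130913365, plus strand): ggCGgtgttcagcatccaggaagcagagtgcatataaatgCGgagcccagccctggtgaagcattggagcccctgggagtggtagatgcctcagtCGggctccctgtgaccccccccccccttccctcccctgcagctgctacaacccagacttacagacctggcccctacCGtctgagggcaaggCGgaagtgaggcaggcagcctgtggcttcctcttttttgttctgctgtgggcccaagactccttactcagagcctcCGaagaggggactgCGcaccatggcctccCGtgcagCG
Lyz2 (chr10:117282223-117282522, minus strand): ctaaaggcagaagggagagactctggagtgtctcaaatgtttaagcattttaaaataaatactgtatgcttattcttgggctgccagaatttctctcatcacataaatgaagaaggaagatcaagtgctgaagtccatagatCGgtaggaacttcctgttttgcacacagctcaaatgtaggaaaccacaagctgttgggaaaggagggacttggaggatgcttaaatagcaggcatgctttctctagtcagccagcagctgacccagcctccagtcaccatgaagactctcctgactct
Lyz1 (chr10:117292819-117293118, minus strand): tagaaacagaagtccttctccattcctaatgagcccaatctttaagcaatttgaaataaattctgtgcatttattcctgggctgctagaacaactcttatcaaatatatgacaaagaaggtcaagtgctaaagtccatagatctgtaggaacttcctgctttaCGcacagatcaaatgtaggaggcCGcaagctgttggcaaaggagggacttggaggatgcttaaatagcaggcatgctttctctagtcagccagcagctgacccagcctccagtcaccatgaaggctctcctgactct
The window held 4 CpG in Cd68, 19 in Coro1a, 7 in Fcer1g and 9 in Laptm5, but 1 in Lyz2 and 2 in Lyz1. Ptprc and Cd53, not shown, had 4 each. The median over 27025 promoters was 7, with quartiles of 3 and 21, so Coro1a was the 1 leukocyte gene of the 7 above 9. Methylation was not measured in these files. Lyz2 and Lyz1 had the same base at 201 of 300 positions (67.0%). The letters GAGGAA, the core of many PU.1 sites, occurred on either strand in 4 of the 7 windows (Cd68, Ptprc, Laptm5 and Cd53) and in 28.3% of all promoters. TATAAA occurred on either strand in 2 of the 7 and in 14.2% of all promoters.

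Signals of different probe sets are not on 1 scale of abundance, so levels can only be placed roughly. Beside 26 genes of distant tissues, which skin cells should lack, the median signal of the 10 leukocyte genes was 159 and 133 in GFP-positive cells, where the distant genes had 83.05 and 57.9. In GFP-negative cells it was 164 and 77.0, where the distant genes had 114 and 33.9. In control cells it was 104 and 26.6, where the distant genes had 77.6 and 40.2. Between 0 and 2 of the 10 genes exceeded the highest distant gene on an array, and between 3 and 6 exceeded their upper quartile. Of the 26 distant genes, 15 passed the level for testing, so genes called bright enough here can still lie at background.

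**Figure D3:**
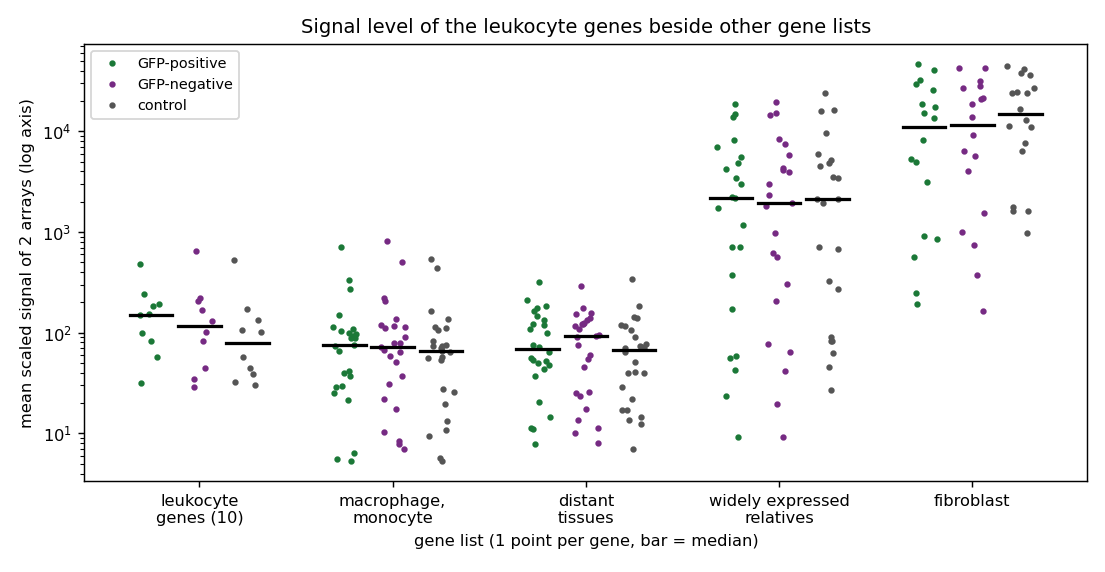
Mean scaled signal of the 2 arrays of a group (log axis), 1 point per gene and bars at the median, for the 10 leukocyte genes, macrophage and monocyte genes, genes of distant tissues, widely expressed relatives of the leukocyte genes and fibroblast genes, each with GFP-positive left, GFP-negative in the middle and control right. The medians of the leukocyte genes were 151, 116 and 79.2 in GFP-positive, GFP-negative and control cells, those of the distant genes 68.7, 92.5 and 66.9, and those of the fibroblast genes 10926, 11428 and 14764.

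To place the 10 genes among markers of the blood cells that dermis can hold, 7 lists (macrophage and monocyte, shared leukocyte, neutrophil, mast, dendritic and Langerhans, T and NK, and B cell) gave 107 further genes on the array. Of these, 54 were bright enough, and 0 were called by limma in either treated group against control, beside 0.122% of all probe sets in GFP-positive and 0.0296% in GFP-negative cells against control. At an unadjusted p under 0.05 there were 4 in GFP-positive and 5 in GFP-negative cells, beside 7.04% and 5.07% of all probe sets. With the replicate number as a block, limma called 2 in GFP-positive cells, both higher (Syk and Cd44), beside 6.21% of all probe sets, and 2 in GFP-negative cells, both higher (Cd44 and Zap70), beside 3.57%. The median log2 difference over the 107 genes was 0.24 in GFP-positive and 0.11 in GFP-negative cells against control, where all genes had 0.04 and 0.03. Both GFP-positive arrays lay above both controls in 29 of the 107 (27.1%) and below in 11, beside 18.4% and 15% of all genes. For GFP-negative cells it was 17 (15.9%) and 10, beside 16% and 14.1%. Cd44, a hyaluronan receptor that fibroblasts carry as well, had signals of 12718 and 12946 in GFP-positive cells, 13800.1 and 12419 in GFP-negative cells and 8060.5 and 8538 in control cells.

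The 25 macrophage and monocyte genes had a median log2 difference of 0.15 in GFP-positive and 0.07 in GFP-negative cells against control, and 12 were bright enough for a test. Both GFP-positive arrays lay above both controls in 7 genes and below in 3, beside 18.4% and 15% of all genes. For GFP-negative cells these counts were 6 and 2, beside 16% and 14.1%. Adgre1, the F4/80 antigen, had signals of 144 and 83.1 in GFP-positive cells, 155 and 75.8 in GFP-negative cells and 170 and 59.1 in control cells. Itgam, the CD11b integrin chain, had 48.6 and 34.6 in GFP-positive cells, 70.3 and 46.8 in GFP-negative cells and 48.8 and 92.6 in control cells. Treated and control arrays overlapped for Adgre1. For Itgam the GFP-negative arrays overlapped the controls. Both GFP-positive arrays of Itgam lay below both controls, but replicate 1 only barely (48.6 against 48.8). The mean signal of Itgam was below the level for testing. Csf1r, the receptor for macrophage colony stimulating factor, had 586 and 829 in GFP-positive cells, 821 and 795 in GFP-negative cells and 546 and 539 in control cells. Every treated array of Csf1r lay above both controls. The log2 difference of Csf1r was 0.35 (SE 0.26) in GFP-positive and 0.55 (SE 0.26) in GFP-negative cells, neither called by limma. The part of blood cells in the leukocyte signals was not tested.

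Transcription factors that open leukocyte genes in blood cells were measured too. Spi1 (PU.1) had signals of 96.0 and 57.4 in GFP-positive cells, 179 and 55.6 in GFP-negative cells and 181 and 89.9 in control cells. Its log2 difference from control was -0.60 (SE 0.63) in GFP-positive and -0.25 (SE 0.63) in GFP-negative cells. Irf8, a partner of PU.1 in myeloid cells, had 125 and 44.5 in GFP-positive cells, 185 and 33.1 in GFP-negative cells and 85.0 and 46.5 in control cells. Runx1, a regulator of blood stem cells, had 413 and 460.1 in GFP-positive cells, 535 and 397 in GFP-negative cells and 508 and 617 in control cells. Of the 15 blood transcription factors on the array, 8 were bright enough and limma called 0 in either treated group, also with the replicate block. Over all probe sets it called 0.122% in GFP-positive and 0.0296% in GFP-negative cells, and 6.21% and 3.57% with the block. Cebpb and Gata2, with Runx1 the factors of highest mean signal, gave log2 differences of -0.41 (SE 0.26) and 0.42 (SE 0.32) in GFP-positive and of -0.55 (SE 0.26) and 0.51 (SE 0.32) in GFP-negative cells against control.

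Syk, the kinase that the ITAM adaptors recruit, had signals of 383 and 318 in GFP-positive cells, 243 and 246 in GFP-negative cells and 122 and 112 in control cells. All treated arrays were above both controls, and the GFP-positive arrays were above the GFP-negative ones. The log2 difference was 1.36 (SE 0.33, limma adjusted p = 0.294, and 0.0138 with the replicate block) in GFP-positive against control cells, 1.44 within replicate 1 and 1.29 within replicate 2. It was 0.90 in GFP-negative against control cells, not called with or without the block. The next probe set of Syk gave 0.49 in GFP-positive cells. Syk fell outside the rule for named genes and was chosen after its values were seen. Its lymphocyte relative Zap70 had 279 and 284 in GFP-positive cells, 715 and 491 in GFP-negative cells and 147 and 126 in control cells, a log2 difference from control of 0.90 (SE 0.32) in GFP-positive and 1.90 (SE 0.32) in GFP-negative cells, where limma gave an adjusted p of 0.208, and of 0.0018 with the replicate block.

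Several leukocyte genes have relatives that many tissues use. The 23 such relatives on the array had a median log2 difference of -0.16 in both treated groups against control. Laptm4a, a relative of Laptm5, had a log2 difference of -0.37 (SE 0.26) in GFP-positive and -0.31 (SE 0.26) in GFP-negative cells. The tetraspanin Cd81 gave -0.14 (SE 0.25) and -0.04 (SE 0.25), and Lamp1, a lysosomal relative of Cd68, -0.15 (SE 0.22) and -0.15 (SE 0.22). Coro1c, a coronin of many tissues, gave 0.50 (SE 0.23) in GFP-positive and 0.49 (SE 0.23) in GFP-negative cells. Of the 19 bright enough, limma called 0 in either treated group against control, beside 0.122% of all probe sets in GFP-positive and 0.0296% in GFP-negative cells. With the replicate block it called 5 in GFP-positive cells (4 higher, 1 lower), beside 6.21% of all probe sets, and 2 in GFP-negative cells, both higher, beside 3.57%.

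**Figure D4:**
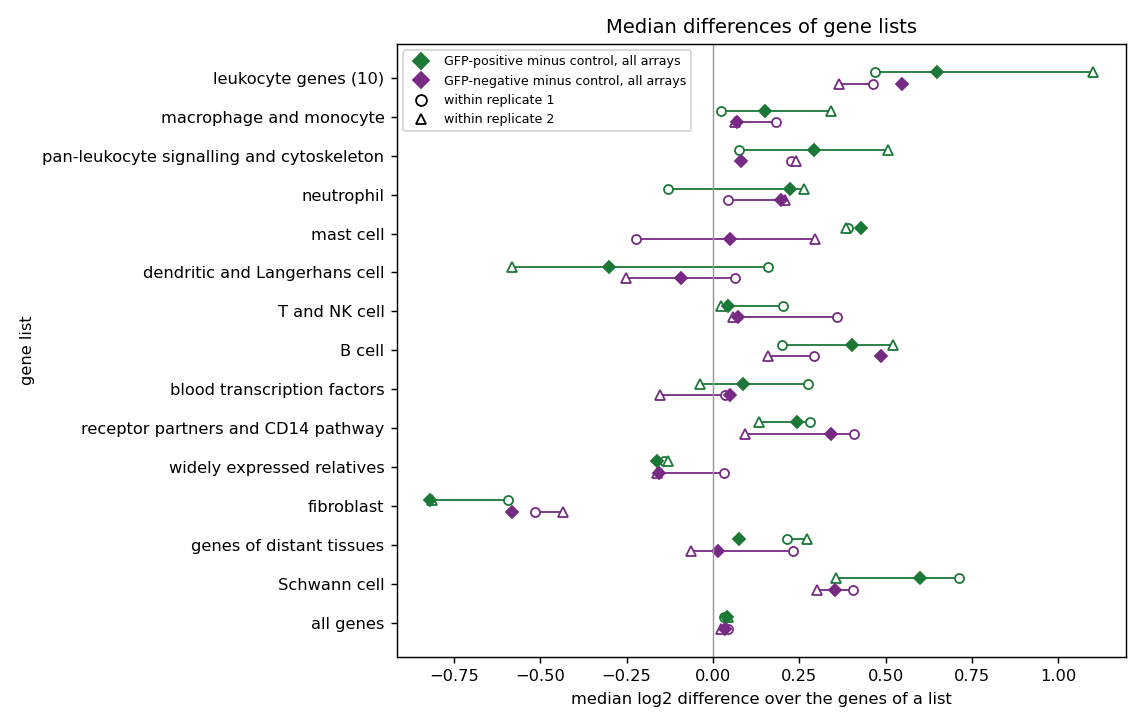
Median log2 difference from control (x axis) over the genes of each list (y axis), GFP-positive above GFP-negative, diamonds for all arrays, open circles within replicate 1 and open triangles within replicate 2. The 10 leukocyte genes have medians of 0.65 and 0.55, all genes 0.04 and 0.03, macrophage and monocyte genes 0.15 and 0.07, B cell genes 0.40 and 0.49, Schwann cell genes 0.60 and 0.35, and fibroblast genes -0.82 and -0.58.

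Among themselves the leukocyte genes did not share 1 pattern over the 6 arrays. The Pearson correlation of a gene with the mean of the other bright leukocyte genes was 0.87 for Ptprc, 0.83 for Coro1a, 0.78 for Laptm5, 0.77 for Fcer1g, 0.76 for Cd68 and 0.66 for both Cd14 and Tyrobp. It was 0.22 for Lyz2, -0.25 for Cd52 and -0.68 for Cd53. These values are over 6 arrays, some of which share a group or a replicate number. Averaged over the 8 bright genes, the centred log2 level was 0.45 and 0.17 in GFP-positive cells, 0.33 and -0.23 in GFP-negative cells and 0.02 and -0.74 in control cells. The genes most like this profile among 22644 probe sets were Slc25a37, a mitochondrial iron importer (r = 1.00), Cend1 (r = 1.00), Slc20a2, a phosphate transporter (r = 0.99), Ppp1r9a (r = 0.99), Pitx3 (r = 0.99), Ttll5 (r = 0.99), Tmco3 (r = 0.99) and Inpp1 (r = 0.99). With so many probe sets searched over 6 arrays, high values arise readily. Slc25a37 had signals of 764 and 587 in GFP-positive cells, 689 and 418 in GFP-negative cells and 522 and 276 in control cells.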

How the data were processed

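Total RNA of 6 samples was measured on Affymetrix mouse expression arrays, 2 per group. For each array the deposited table gives the intensity of every probe set as a linear signal, computed with MAS5 as listed in the submitters' processing notes (version not given in the sources used here). Groups, dose and times were taken per the labels, which call the replicates biological without naming animals, so a p-value reflects only how far these samples spread. Of 45101 probe sets, 64 controls were left out; 34945 of the rest had 1 gene symbol, 932 several and 9160 none here. All arrays were brought to a 2% trimmed mean of 500, because the deposited trimmed mean was 500.003 or 500.004 on 4 arrays but 50.5 on GFP-positive replicate 2 and 62.0 on GFP-negative replicate 2. The offset of 30.6 was the median of the 6 arrays' 25th percentiles, and the filter was the 40th percentile of mean signals (67.7), passed by 27022 probe sets of 13223 genes.

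Comparisons used limma 3.58.1 in R 4.3.3 (all 6 arrays, 3 residual degrees of freedom, eBayes with a trend, Benjamini-Hochberg over all tested probe sets, adjusted p under 0.05) and were tested on simulated data. A gene was taken at its brightest probe set, and non-overlap means that both arrays of a group lay above both of the other. Samples of the same replicate number deviated together over all probe sets (correlations of 0.51 to 0.56 between groups, with 2 pairs per contrast, too few for the numbers to count as pairs), so within-replicate values are given throughout and the replicate block is an alternative. Promoters, with build GRCm38.p6, came from a RefSeq table, by symbol. Genes named are all members, up to 3 genes of highest mean signal from each other list and any called gene, Spi1, Irf8, Runx1, Csf1r, Adgre1 and Itgam, and the 8 most like in pattern. The members and lists were chosen with earlier results of these data known. Alternatives were other scalings (quantile, median centring), offsets, filters, models, probe set choices and leaving out each array.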

Additional observations from a re-analysis of the deposited data

How the results depend on the processing

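In GFP-positive against GFP-negative cells no member was called under any alternative. The 10 genes gave 330 alternative log2 differences, of which 277 stayed within 1 SD of the value reported, 53 moved and 48 turned sign. Cd68 kept a difference from control above 0 in every alternative (0.79 to 1.82 in GFP-positive, 0.70 to 1.68 in GFP-negative cells), and Cd14 did so too (0.38 to 2.35 and 0.25 to 2.22). Coro1a did not (-0.48 to 1.89 and -0.17 to 1.7). The lowest values of Coro1a came from leaving out probe sets of the x, s and a types, which left only its dimmest probe set. Because the list was selected on treated against control cells, a kept sign is a description and no support. The split by replicate was not among these alternatives, and Cd14 in GFP-negative against control cells gave -0.00 within replicate 1. The count of probe sets called in GFP-positive against control cells was 33. It was 0 without a trend (1674 at an unadjusted p under 0.05), 1679 with the replicate block, 1631 with the replicate block and quantile normalization, 8 with the replicate block and no trend, 20 without probe sets of the x, s and a types, 62 without both rescaled arrays and 78 at an adjusted p under 0.10, and ranged from 0 to 35 on leaving out 1 array. In GFP-negative against control cells it was 8 (7 higher, 1 lower). It was 16 with median centring (10 higher, 6 lower), 7 with quantile normalization (5 higher, 2 lower), 3 with 0.25 of the offset, 3 with the stricter filter, 0 without a trend (1298 unadjusted), 966 with the replicate block, 916 with the block and quantile normalization, 0 with the block and no trend (3489 unadjusted), 3 with only the groups compared, 3 without those probe set types, 49 without both rescaled arrays and 25 at 0.10, and 0 to 6 on leaving out 1 array. The members whose groups did not overlap numbered 5 in GFP-positive against control (5 to 7 on leaving out 1 array) and 2 in GFP-negative against control (3 to 7, and 5 without both rescaled arrays). In GFP-positive against GFP-negative cells there were 2 (4 to 8), 1 with quantile normalization, 1 with median centring, 1 with the mean over probe sets and 5 without both rescaled arrays; fewer arrays make non-overlap easier. The cause of the other shifts was not tested.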

Other observations

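Some relatives of the leukocyte genes were called by limma only with the replicate block. Ptpre, a receptor tyrosine phosphatase of the same family as Ptprc, had signals of 350.1 and 406 in GFP-positive cells, 294 and 312 in GFP-negative cells and 24.7 and 142 in control cells, with log2 differences from control of 2.06 (SE 0.54) and 1.77 (SE 0.54). It was chosen after its values were seen. With the block, 4 relatives were called higher (Cd82, Cd151, Ptpre and Ptprk) and 1 lower (Tspan4) in GFP-positive against control cells, beside 6.21% of all probe sets called, and 2 higher (Cd151 and Ptpre) in GFP-negative against control cells, beside 3.57%. Of the 18 fibroblast genes, the block called 12 lower in GFP-positive and 9 lower in GFP-negative cells against control. Over all 27022 probe sets it called 827 and 453 lower. Limma without the block called 0 of the 18, beside 0.122% and 0.0296% of all probe sets in either direction.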
